A study of Triticum aestivum with 24 samples.

Results

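Proteins of 3 kinds known from organelle gene expression were followed through heat stress and recovery in leaves of bread wheat, each by 1 transcript. They are a MurE-like ligase on chromosome 1D (TraesCS1D01G211600.1), a mitochondrial transcription termination factor (mTERF) family protein on 1B (TraesCS1B01G325200.1) and the 50S ribosomal protein L5 on 1D (TraesCS1D01G128800.1). They were taken by ID, 3 of the 137056 transcripts in the table, and all 3 were among the 54517 transcripts that passed the filter on low counts. The members had been chosen with their measured values in these libraries in view, of which the difference between heat and control is taken as the one that chose them, so that difference is given for them as a description, without a test.

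Plants were of the cultivar Chinese Spring, a bread wheat line whose 3 subgenomes (A, B and D) hold similar copies of most genes, and all seed came from 1 selfed plant. Control plants stayed at 18 °C by day and 16 °C by night. Heat plants spent 5 days at 37 °C from the boot stage, when the head is still inside the leaf sheath, and were watered so that drought did not accompany the heat. Leaves of both treatments were collected when the stress ended (0 days after treatment, DAT) and at 1 and 4 DAT, after the heat plants had returned to the control regime. Each of the 6 groups of treatment and time held 4 libraries, and RNA of 18 plants was pooled per replicate. The pooling is described for the small RNA and degradome libraries of the same experiment, and it is inferred for the RNA-seq libraries from their matching labels.

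Chloroplasts and mitochondria keep small genomes with their own transcription and bacterial-type ribosomes, yet most proteins that run this machinery are encoded in the nucleus. In bacteria MurE adds an amino acid to the precursor of the cell wall peptidoglycan, whereas its Arabidopsis homologue is an accessory component of the plastid-encoded RNA polymerase, needed for chloroplast development. Plant mTERF proteins are nucleic acid binding proteins of both organelles, required for the transcription, processing or splicing of organelle RNAs. Ribosomal protein L5 belongs to the large subunit of bacterial-type ribosomes, where it contacts the 5S rRNA. The annotation of the ligase and of L5 does not state where the protein works, and that of the mTERF protein says mitochondrial, so a plastid role of these 3 wheat proteins is not given by the sources used here.

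All 3 transcripts carry a name here because the study's table of microRNA targets lists them, and the pairs of microRNA and site from that table are therefore shown. Each sequence is written 5′ to 3′, in DNA letters, and capitals mark the bases that do not form a Watson-Crick pair when the pair is aligned end to end in opposite directions.
miR5062a-1: taCgCcgaaaaGgGgttccaagT
site in the MurE-like ligase (1D): TcttggaacTcGttttcgAcCta
miR1135-1765-5p: taaagGCgCtgTtcatTaagg
site in the mTERF protein (1B): ccttTatgaGcaAcCTcttta
miR1136-235-3p: ttacctacAtagatcttga
site in the mTERF protein (1B): tcaagatctaCgtaggtaa
miR1137-310-5p: tCatgtttcaacCCAGtagAtaaa
site in the 50S ribosomal protein L5 (1D): tttaActaTCACgttgaaacatAa

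The closest pairing was that of miR1136-235-3p with the mTERF transcript, with 18 of 19 bases paired. The other pairs had more capitals, 5 in the ligase, 5 in the second mTERF site and 6 in L5, of which 1, 2 and 1 were G with U (written T). Among the pairs shown, the 3 transcripts thus went with 4 different microRNAs, none of them shared. They come from a shortened copy of the study's list, and only pairs with microRNA and site of equal length were read. Levels of these microRNAs were not analysed here.

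Levels are given in CPM, that is counts scaled to library size, with the TMM correction for libraries that a few dominant transcripts fill. Total counts per library lay between 5403461 and 16112270. Averaged by group, the TMM factor ran from 0.924 to 1.01, apart from heat at 0 DAT with 1.35 ± 0.13 (SD, n = 4). A single transcript, TraesCS1A01G000100.1, was abundant in 4 libraries, namely replicate 3 of heat at 1 DAT (6.95% of all counts), replicate 2 of control at 4 DAT (4.34%) and replicates 2 and 4 of heat at 4 DAT (4.57% and 3.67%). It stayed at or below 0.692% elsewhere, and the members' values at 1 and 4 DAT are also given without these 4 libraries. Leaving them out gave the ligase a log2 fold change of 3.44 at 1 DAT and of 0.59 at 4 DAT. The leaf markers were present in every library, the Rubisco small chain at no less than 974 CPM. In bulk leaf RNA, fewer cells with a transcript and less of it per cell cannot be told apart.

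The MurE-like ligase showed the widest difference between treatments, and the difference was present both at the end of the stress and 1 day later. At 0 DAT the control libraries had 4.70, 6.98, 4.60 and 4.02 CPM. The heat libraries had 11.2, 26.0, 21.7 and 19.0 CPM. Every heat library lay above every control library, the lowest heat value being that of replicate 1. Control averaged 5.08 ± 1.31 and heat 19.5 ± 6.21 CPM (SD, n = 4), a log2 fold change of 1.93 ± 0.30 (SE).

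At 1 DAT the control libraries of the ligase had 0.933, 2.42, 4.05 and 1.43 CPM, and the heat libraries 23.2, 18.2, 21.7 and 28.6 CPM. The groups were again far apart, control averaging 2.21 ± 1.37 and heat 22.9 ± 4.30 CPM (SD, n = 4). The log2 fold change was 3.39 ± 0.33 (SE). It exceeded that of 0 DAT by 1.45 ± 0.43 on the log2 scale. The heat libraries of both times overlapped and differed by 0.24 ± 0.28, whereas the log2 difference between the control libraries of 1 and 0 DAT was -1.21 ± 0.33. The larger fold change at 1 DAT thus went with a lower control level and a similar heat level.

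By 4 DAT the ligase was back near the control range. Control libraries had 3.36, 5.80, 3.87 and 4.06 CPM and heat libraries 5.17, 6.24, 6.12 and 6.34 CPM. One control library, replicate 2, lay above the lowest heat library, so the groups overlapped by 1 value on each side. The means were 4.27 ± 1.06 and 5.97 ± 0.54 CPM (SD, n = 4), with a log2 fold change of 0.47 ± 0.31 (SE). The heat libraries of 4 DAT lay below all those of 1 DAT, with a log2 difference of -1.95 ± 0.30.

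Ordered by its mean level, the ligase went from heat at 1 DAT over heat at 0 DAT, heat at 4 DAT, control at 0 DAT and control at 4 DAT down to control at 1 DAT. Of these 5 neighbouring pairs, only heat at 0 DAT and heat at 4 DAT did not overlap, with a 3.26-fold step between their means. The spread between replicates was widest in control at 1 DAT (coefficient of variation 62.2%), where the libraries held 7 to 31 counts and counting alone would give 26.4%.

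**Figure D1:**
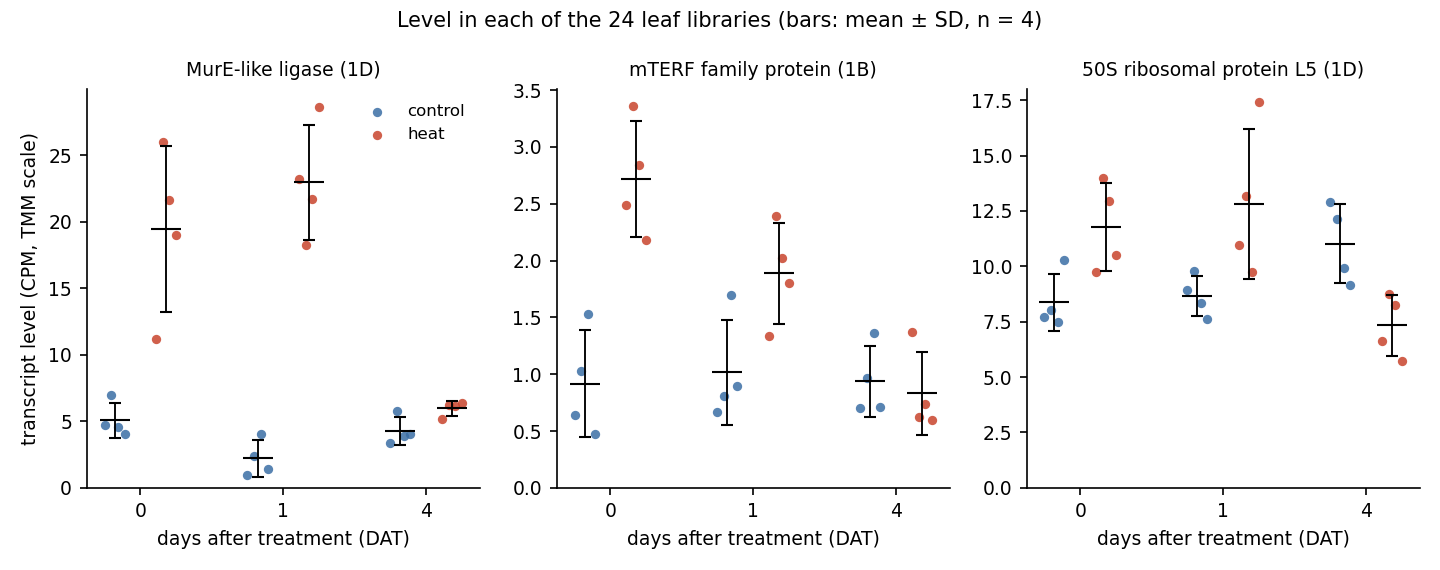
Level of the 3 transcripts in each leaf library (vertical axes, CPM on the TMM scale) against days after treatment, with control in blue and heat in red; black bars are the mean ± SD of 4 libraries. The ligase (left) is at 11.2 CPM or more in every heat library of 0 and 1 DAT and at 6.98 CPM or less in every other library, the mTERF protein (middle) has its highest mean in heat at 0 DAT (2.72 CPM), and the mean of L5 (right) is lower in heat than in control only at 4 DAT.

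The mTERF protein was higher in heat at the end of the stress and in the control range by 4 DAT, at a low level throughout. At 0 DAT the control libraries had 0.637, 1.02, 1.53 and 0.473 CPM and the heat libraries 2.49, 3.36, 2.85 and 2.18 CPM. All 4 heat libraries lay above all 4 control libraries. The means were 0.917 ± 0.471 and 2.72 ± 0.509 CPM (SD, n = 4), with a log2 fold change of 1.54 ± 0.38 (SE).

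At 1 DAT the control values of the mTERF protein were 0.667, 0.806, 1.70 and 0.895 CPM, and its heat values 1.33, 2.39, 2.02 and 1.80 CPM. Control replicate 3 reached into the heat range, above the lowest heat library. The log2 fold change was 0.89 ± 0.38 (SE), from 1.02 ± 0.464 to 1.89 ± 0.443 CPM (SD, n = 4). Without control replicate 3 it was 1.25, and without the 4 libraries rich in TraesCS1A01G000100.1 it was 0.88.

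At 4 DAT control libraries held 0.700, 0.967, 1.37 and 0.711 CPM of the mTERF transcript, and heat libraries 1.37, 0.624, 0.734 and 0.595 CPM. Each treatment had 1 library at 1.37 CPM and the other 3 below 1 CPM. The log2 fold change was -0.14 ± 0.40 (SE). It was 0.17 without the 4 libraries rich in TraesCS1A01G000100.1, and between -0.50 and 0.10 when single libraries were left out. The heat libraries of 4 DAT lay below all those of 0 DAT, with a log2 difference of -1.66 ± 0.39.

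The order of mean levels for the mTERF protein ran from heat at 0 DAT over heat at 1 DAT to control at 1, 4 and 0 DAT and last heat at 4 DAT, and all 5 neighbouring pairs overlapped. These values rest on few counts, 3 to 61 per library. Counting error alone would give a coefficient of variation of 16.8% in heat at 0 DAT and 46.2% in heat at 4 DAT, near the observed 18.7% and 43.9%.

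Of the 3, the ribosomal protein L5 had the smallest difference at the end of the stress, and its difference between treatments changed sign over recovery. At 0 DAT its control libraries had 7.72, 8.01, 7.50 and 10.3 CPM, and its heat libraries 9.75, 13.97, 12.9 and 10.5 CPM. Control replicate 4 lay inside the heat range and the other 3 control libraries below it. The means were 8.38 ± 1.29 and 11.8 ± 1.99 CPM (SD, n = 4), with a log2 fold change of 0.49 ± 0.18 (SE).

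At 1 DAT the control libraries of L5 had 8.93, 9.77, 8.36 and 7.61 CPM, and the heat libraries 10.95, 13.2, 9.76 and 17.4 CPM. The ranges met at a single pair, since the highest control library (replicate 2) stood just above the lowest heat library (replicate 3). That heat library was one of the 4 rich in TraesCS1A01G000100.1. The log2 fold change was 0.57 ± 0.18 (SE), and 0.70 without those libraries.

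At 4 DAT the order was turned round. Control libraries had 12.9, 12.1, 9.9 and 9.14 CPM of L5, and heat libraries 6.64, 8.73, 8.24 and 5.75 CPM. Every heat library lay below every control library, heat averaging 7.34 ± 1.39 and control 11.02 ± 1.78 CPM (SD, n = 4). The log2 fold change was -0.58 ± 0.19 (SE), and -0.50 without the 4 libraries named above. From 1 to 4 DAT the heat libraries of L5 differed by -0.81 ± 0.19 on the log2 scale, while control at 4 DAT lay 0.40 ± 0.18 above control at 0 DAT.

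The mean level of L5 was highest in heat at 1 DAT, followed by heat at 0 DAT, control at 4, 1 and 0 DAT and heat at 4 DAT. All 5 neighbouring pairs in this order overlapped. With 29 to 239 counts per library, L5 had a coefficient of variation between 10.6% and 26.3% within groups.

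At 0 DAT, 2 of the 3 transcripts had no overlap between treatments, at 1 DAT only the ligase and at 4 DAT only L5. Among all tested transcripts the library ranges of heat and control did not overlap for 32.4% at 0 DAT, 16.4% at 1 DAT and 4.97% at 4 DAT. Over all tested transcripts, edgeR's quasi-likelihood test at an adjusted p under 0.05 called 24.3% at 0 DAT (11% higher and 13.3% lower in heat), 13.5% at 1 DAT (7.32% higher and 6.18% lower) and 0.18% at 4 DAT (0.0697% higher and 0.11% lower). The count of 1 DAT was 3514 in place of 7358 when only the libraries of that time were fitted. The 98 calls of 4 DAT became 1 in that fit, 3 without the 4 libraries rich in TraesCS1A01G000100.1, 12 without heat replicate 2 and 655 with DESeq2. Since these contrasts are taken to have chosen the members, nothing is read from these shares. At 0 DAT a larger log2 fold change than that of the ligase was found in 4.5% of all tested transcripts, against 6.78% for the mTERF protein and 27.5% for L5. At 1 DAT the corresponding shares were 1.48%, 12.1% and 19.7%. At 4 DAT 14.4% of transcripts lay above the ligase and 12.4% lay below L5.

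**Figure D2:**
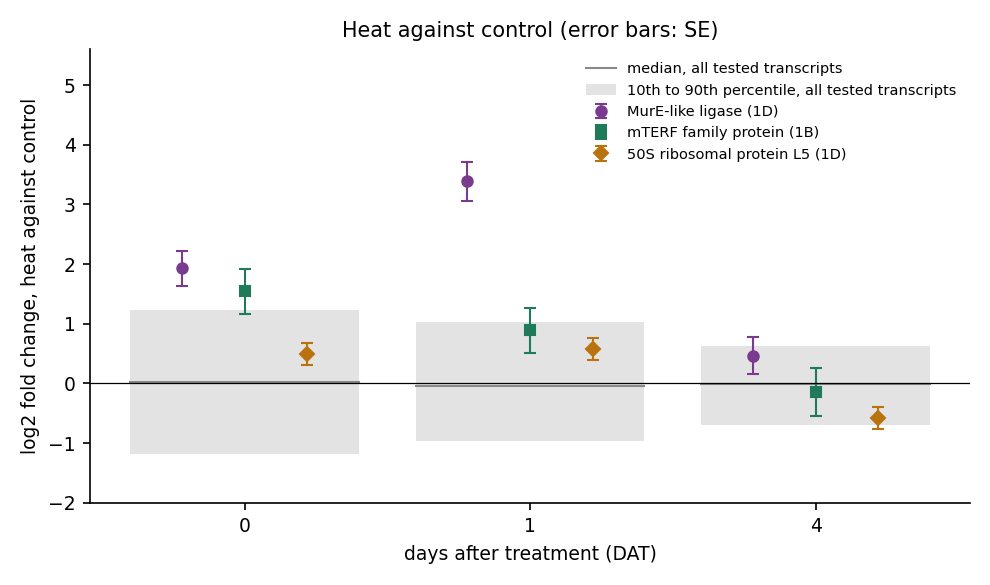
Log2 fold change of heat against control (vertical axis) at 0, 1 and 4 days after treatment for the 3 transcripts, with error bars of 1 SE; grey boxes span the 10th to 90th percentile of all 54517 tested transcripts and the grey line is their median. The ligase lies above the box at 0 and 1 DAT (1.93 and 3.39), the mTERF protein only at 0 DAT (1.54), and L5 inside it at all times (0.49, 0.57 and -0.58).

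The scale matters at 0 DAT. With total counts alone in place of TMM, the median log2 fold change of all transcripts at 0 DAT was 0.54 in place of 0.03, and 83.1% of the calls were higher in heat in place of 45.2%. The values of the ligase, the mTERF protein and L5 then became 2.40, 2.09 and 0.98, still all above that median. At 1 DAT total counts gave 72.3% higher calls in place of 54.2%, with a median of 0.01 in place of -0.04.

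Change over time in plants that were never heated was also put through the test for the members. The same control libraries are part of the heat contrasts taken to have chosen the members, and a low control level widens such a difference. The p-values of the members below are therefore not independent of that choice, and nothing is concluded from them. Between 0 and 1 DAT the ligase went from 5.08 to 2.21 CPM in control, a log2 fold change of -1.21 ± 0.33 (SE). All 4 libraries of 1 DAT but replicate 3 lay below all those of 0 DAT. The unadjusted p was 0.0013 and the adjusted p 0.3 by edgeR's quasi-likelihood test, so the change did not pass. DESeq2 called it at an adjusted p of 0.039, and over all alternatives the adjusted p ran up to 0.64. The mTERF protein (0.13 ± 0.39, adjusted p = 1 by edgeR) and L5 (0.05 ± 0.18, adjusted p = 1 by edgeR) did not pass either. From 0 to 4 DAT the changes in control were -0.24 ± 0.31 for the ligase, 0.02 ± 0.39 for the mTERF protein and 0.40 ± 0.18 for L5, with edgeR adjusted p of 0.97, 1 and 0.7. Among all transcripts edgeR called 0.00367% between control at 1 and 0 DAT (2 transcripts) and 0.00917% between control at 4 and 0 DAT (5 transcripts). With the pool of plants as a replicate block both counts were 0. At an unadjusted p under 0.05 they were 4062 and 3783, and DESeq2 called 295 and 281.

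Other transcripts with related annotation were taken by the wording of the study's target table, which was chosen by the study from the same experiment and is not independent evidence. The lists were also chosen with earlier results of these data known, so their adjusted p are not those of lists fixed beforehand. The counts of these short lists stand beside 24.3%, 13.5% and 0.18% of all tested transcripts called at 0, 1 and 4 DAT, and nothing particular to a list is read from them. The mTERF list held 23 transcripts, of which 9 were tested, 8 besides the member. At 0 DAT none of the 8 was called by edgeR, none had an unadjusted p under 0.05 and DESeq2 called none. Their log2 fold changes ran from -0.17 to 1.14 with a median of 0.27.

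At 1 DAT 1 of these 8 mTERF transcripts rose, against 7.32% of all tested transcripts. This was TraesCS6B01G395300.1, from 0.479 ± 0.131 to 1.32 ± 0.486 CPM (SD, n = 4). Its log2 fold change of 1.45 ± 0.42 (SE) passed edgeR's test with an adjusted p of 0.023. Its heat libraries (1.24, 0.797, 1.29 and 1.97 CPM) all lay above its control libraries (0.40, 0.504, 0.653 and 0.358 CPM). The call ended without control replicate 1 (edgeR adjusted p = 0.06) or 4 (0.065), without heat replicate 4 (0.094) and without a filter on low counts (0.06). With only the 1 DAT libraries the filter removed this transcript, so no value was obtained. No control library of any time held more than 0.947 CPM of it. It may thus have passed the filter only through heat libraries, and nothing is concluded from its call. The median of the 8 was 0.45, and at 4 DAT it was -0.10 with no call. At an unadjusted p under 0.05 there were 4 of them at 1 DAT and 2 at 4 DAT, where DESeq2 called 2 and 0.

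Pentatricopeptide repeat proteins, which bind organelle RNAs, were listed 23 times and tested 5 times, with no call by edgeR at any time. DESeq2 called 1 of them at 0 DAT, TraesCS7B01G288900.1 (log2 fold change 1.05, DESeq2 adjusted p = 0.016, edgeR adjusted p = 0.085), and it alone had an unadjusted p under 0.05 by edgeR. Of 2 splicing factors, 1 was called at 0 DAT and at 1 DAT. CRS2-associated factor 1, which in maize is needed for the splicing of group II introns in chloroplasts (TraesCS6D01G100100.2), rose from 2.53 ± 0.558 to 6.04 ± 1.02 CPM (SD, n = 4), a log2 change of 1.26 ± 0.24 (adjusted p = 0.00057, edgeR). It was also higher at 1 DAT (0.92 ± 0.25, edgeR adjusted p = 0.016), a call that ended without heat replicate 1 (0.068), with total counts (0.1) and with only the 1 DAT libraries (0.086). The other, a protein with a CRM RNA-binding domain (TraesCS3D01G505800.1), had 1.07 ± 0.39 at 0 DAT (edgeR adjusted p = 0.051) and was called by DESeq2 (adjusted p = 0.017). The RNA polymerase transcript of the table did not pass the filter on low counts.

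Ribosomal proteins were listed by type. Besides L5, the bacterial-type list had 2 tested transcripts, the 30S proteins S18 (TraesCS1B01G187800.1) and S31 (TraesCS5B01G317500.1). Neither was called at any time by edgeR or DESeq2, and neither had an unadjusted p under 0.05. Their log2 fold changes were 0.15 ± 0.20 and 0.27 ± 0.29 (SE) at 0 DAT. At 1 DAT they were -0.01 ± 0.21 and 0.06 ± 0.30, and at 4 DAT -0.05 ± 0.21 and -0.32 ± 0.31. Of 5 ribosomal proteins of the cytosol, only the 60S protein L36 (TraesCS1B01G294200.1) was called, higher in heat by 0.53 ± 0.17 at 0 DAT and 0.97 ± 0.18 at 1 DAT (adjusted p = 0.03 and 8e-04, edgeR). The call of 0 DAT ended without control replicate 1 (edgeR adjusted p = 0.056), 2 (0.089) or 3 (0.052), without heat replicate 2 (0.12) or 3 (0.087) and without a filter (0.073). The 40S protein S24 (TraesCS6B01G234000.1) was not called, with 0.49 ± 0.24, 0.54 ± 0.24 and -0.52 ± 0.25 (SE) at 0, 1 and 4 DAT. Its unadjusted p by edgeR was 0.056, 0.039 and 0.051. A change of sign like that of L5 was thus also seen in a cytosolic ribosomal protein. All 5 ran from -0.30 to 0.53 at 0 DAT, from -0.01 to 0.97 at 1 DAT and from -0.52 to 0.06 at 4 DAT.

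Of the enzymes that charge tRNAs with amino acids, 4 were tested, and 3 changed at 1 DAT, in both directions. None was called at 0 DAT by edgeR or DESeq2 or had an unadjusted p under 0.05 there, and the difference between the times was not tested for them. Methionine-tRNA ligase (TraesCS4A01G051900.2) rose from 8.55 ± 2.47 to 34.7 ± 4.71 CPM (SD, n = 4), a log2 change of 2.02 ± 0.22 (adjusted p = 4e-06, edgeR). Leucine-tRNA ligase (TraesCS1D01G221400.1, -1.33 ± 0.38, edgeR adjusted p = 0.024) and tyrosine-tRNA ligase (TraesCS2B01G068200.1, -1.12 ± 0.35, edgeR adjusted p = 0.038) fell. The leucine call ended under 7 of 16 alternatives, among them the removal of control replicate 1 (edgeR adjusted p = 0.068), control replicate 4 (0.083), heat replicate 1 (0.071) and heat replicate 3 (0.072), and of the 4 libraries rich in TraesCS1A01G000100.1 (-1.13, 0.11). The tyrosine call ended under 10 of 16, among them leaving out control replicate 1 (0.12), 2 (0.053) or 3 (0.092) or heat replicate 1 (0.05), 3 (0.087) or 4 (0.099). Leaving out those 4 libraries together ended it too (-0.82, edgeR adjusted p = 0.067).

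Photosynthesis proteins also went in both directions. TraesCS5A01G109600.1 is annotated as a photosystem II reaction center protein of the PsbP family. It rose both at 0 DAT, by 0.58 ± 0.18, and at 1 DAT, by 0.76 ± 0.19 (adjusted p = 0.023 and 0.009, edgeR). The first of these calls ended without control replicate 2 (edgeR adjusted p = 0.077) or 3 (0.05), without heat replicate 2 (0.073) or 3 (0.07) and without a filter (0.05). The second ended with only the 1 DAT libraries (0.054). The Rubisco small chain (TraesCS5B01G162800.1) fell at 0 DAT (-1.44 ± 0.45, edgeR adjusted p = 0.023), a call lost on leaving out control replicate 3 (0.086), heat replicate 1 (0.084) or heat replicate 4 (0.06). Cytochrome b6-f subunit 4 (TraesCSU01G269500.1) rose at 1 DAT by 2.03 ± 0.48 (adjusted p = 0.0069, edgeR), and by 1.26 (0.046) without heat replicate 3, which held 81.9 CPM. The 4 libraries rich in TraesCS1A01G000100.1 had the highest values of this subunit in their groups, and without them the rise was 1.28 (adjusted p = 0.00042, edgeR). At 4 DAT edgeR and DESeq2 called none of the tested transcripts of these lists, and besides the 2 mTERF transcripts 2 others had an unadjusted p under 0.05.

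**Figure D3:**
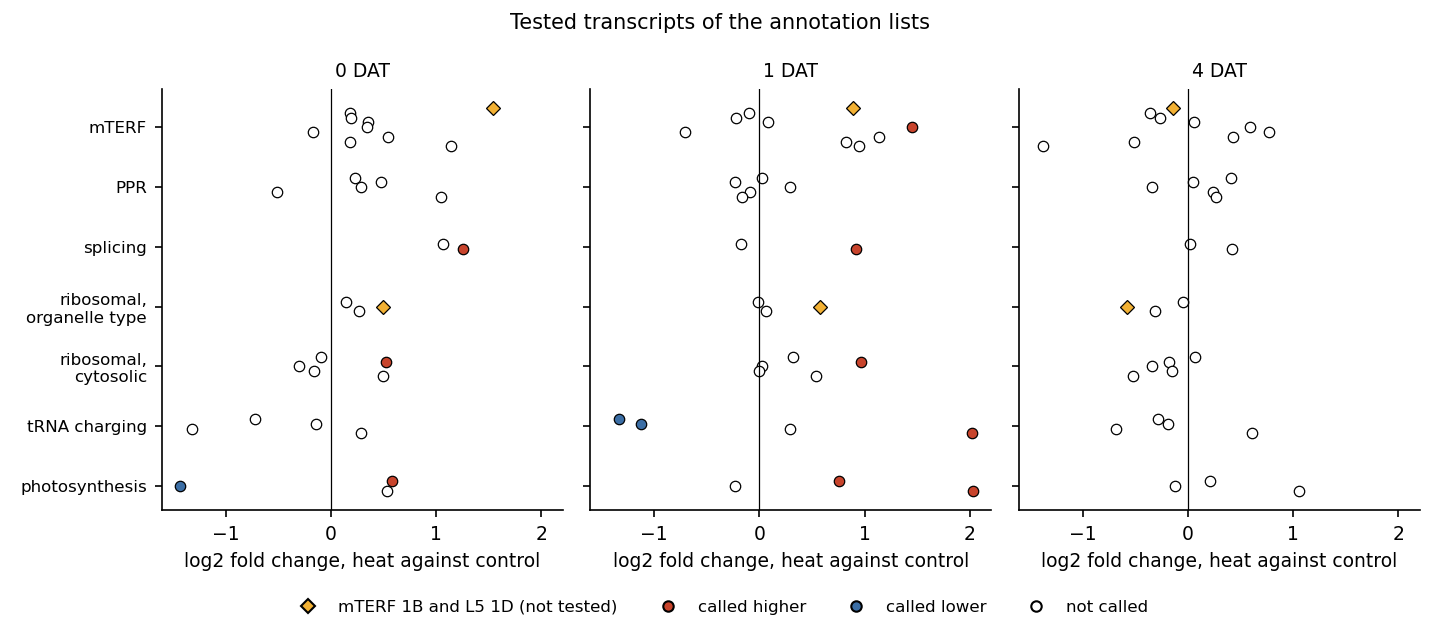
Log2 fold change of heat against control (horizontal axes) for each tested transcript of 7 annotation lists at 0, 1 and 4 days after treatment; filled circles were called by edgeR as higher (red) or lower (blue) in heat, open circles were not called, and yellow diamonds are the mTERF protein on 1B and L5 on 1D, which were not tested. The diamonds were chosen with this difference in view, so nothing is read from their place in a list. The mTERF diamond is at 1.54 at 0 DAT, and L5, in a list of 3 tested transcripts, is at -0.58 at 4 DAT. No list has a call at 4 DAT.

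The patterns of the 3 transcripts over the 6 groups were compared with those of 45909 transcripts of at least 1 CPM, as the root mean square (RMS) difference of the group means of log2 CPM after centring each transcript on its own mean. This likeness is a description over 6 groups of the same libraries, and the features that near patterns share follow from how they were picked. Among themselves the members were not close. The mTERF protein and L5 differed by 0.40 on the log2 scale, with 4596 as the rank of L5 among the transcripts nearest to the mTERF protein. The ligase differed by 0.79 from the mTERF protein and by 1.03 from L5.

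The ligase had its nearest pattern in TraesCS5A01G006100.1 (RMS difference 0.11), which had 20.5, 36.1, 31.8 and 29.0 CPM in heat at 0 DAT against 7.48, 9.50, 6.45 and 6.63 CPM in control. Like the ligase, it was low in control at 1 DAT, with 3.73, 6.75, 3.79 and 1.88 CPM. Its log2 fold changes were 1.96, 3.24 and 0.66 at 0, 1 and 4 DAT. The next were TraesCS3B01G339200.1, TraesCS1A01G413600.1, TraesCS5D01G006100.1 and TraesCS2B01G212000.1, with RMS differences of 0.14 to 0.18. TraesCS5A01G006100.1 and TraesCS5D01G006100.1 carry the same gene number on 5A and 5D, and whether they are copies of 1 gene was not looked up. Among transcripts with annotation text the nearest was fructokinase-2 on 3B, an enzyme that phosphorylates fructose (TraesCS3B01G397500.1), at rank 200 and an RMS difference of 0.51.

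For the mTERF protein the nearest pattern was that of TraesCS2D01G396500.1 (RMS difference 0.09), with 17.5, 13.4, 13.2 and 13.5 CPM in heat at 0 DAT and 7.16, 3.72, 6.13 and 5.80 CPM in control. Its log2 fold changes were 1.33, 0.87 and -0.11 at 0, 1 and 4 DAT. TraesCS3D01G111500.1, TraesCS1D01G390500.1, TraesCS5A01G212500.1 and TraesCS2A01G212000.1 followed, up to an RMS difference of 0.10. The nearest with text was a protein with an F-box, the domain of ubiquitin ligase subunits (TraesCS5B01G167200.1), at rank 54 (0.14).

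L5 had the closest neighbour of the 3, TraesCS2A01G443200.1 (RMS difference 0.04). The RMS difference is not scaled to the size of a pattern, so a flatter pattern has closer neighbours. The centred means of L5 ran from -0.41 to 0.36, those of the ligase from -1.74 to 1.69. TraesCS2A01G443200.1 had 7.52, 5.28, 8.28 and 8.41 CPM in heat at 1 DAT and 3.9, 3.74, 4.81 and 3.96 CPM in heat at 4 DAT. Its log2 fold changes were 0.44, 0.58 and -0.52 at 0, 1 and 4 DAT. They are given without a test, since likeness to L5 in these same values picked this transcript. TraesCS3B01G138000.1, TraesCS7D01G039600.2, TraesCS2B01G465300.2 and TraesCS4D01G214900.1 had RMS differences of 0.05. The nearest with text was a pyridoxine/pyridoxamine phosphate oxidase, an enzyme of vitamin B6 metabolism (TraesCS5A01G528100.1), at rank 37 (0.09).

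**Figure D4:**
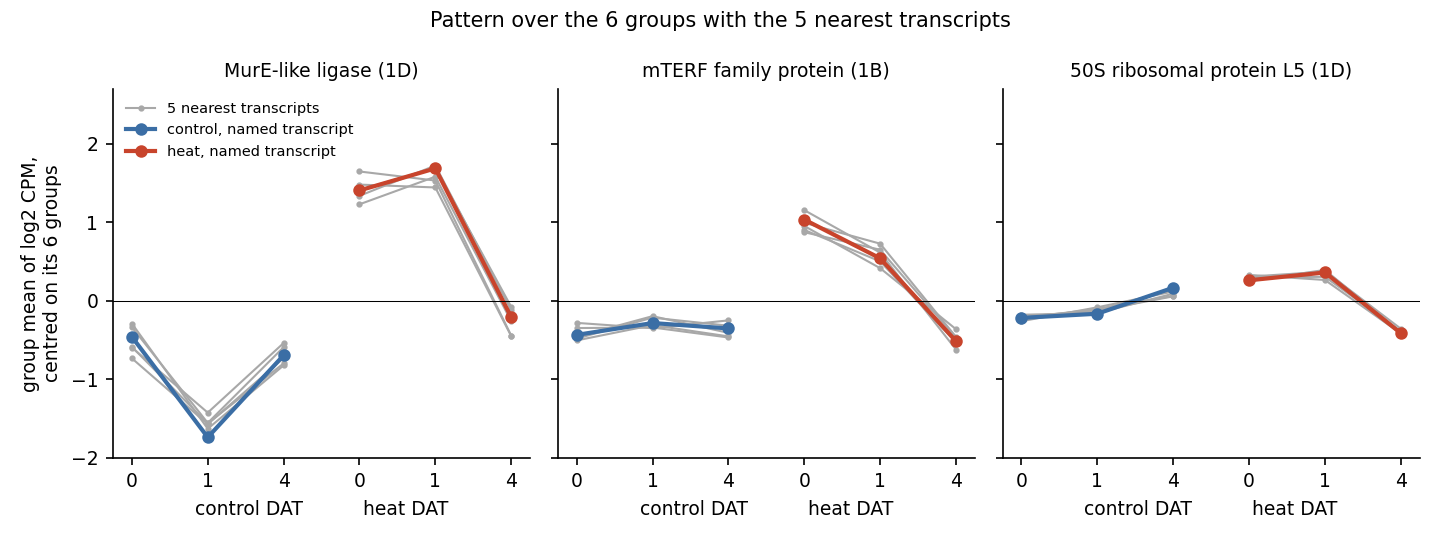
Group means of log2 CPM, each transcript centred on the mean of its 6 groups (vertical axis), for control and heat at 0, 1 and 4 days after treatment; thick lines are the ligase, the mTERF protein and L5 (control blue, heat red) and grey lines the 5 transcripts nearest to each. The ligase and its nearest transcripts share a low control value at 1 DAT, and L5 and its nearest share a heat value at 4 DAT below all control values.

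The transcripts of genes with the closest numbers on the same chromosome were compared next. Over the 3 members edgeR called 4 of these 18 neighbours at 0 DAT, against 24.3% of all tested transcripts, and 1 at 1 DAT, against 13.5%. Of 6 tested transcripts around the ligase, none was called higher by edgeR, and 2 were lower at 0 DAT. These were TraesCS1D01G212400.1 (-2.16, edgeR adjusted p = 0.00078) and TraesCS1D01G211800.1 (-0.39, edgeR adjusted p = 0.042). The first was also lower at 1 DAT (-1.33, edgeR adjusted p = 0.038), a call lost under 6 of 16 alternatives, on leaving out control replicate 1 (0.088), control replicate 3 (0.095), heat replicate 1 (0.12) or heat replicate 4 (0.13), without a filter (0.054) and with only the 1 DAT libraries (0.13). The second ended under 12 of 16 alternatives, including the removal of any of the 8 libraries of 0 DAT (edgeR adjusted p between 0.052 and 0.11). Near the mTERF protein 1 of 6 was called, TraesCS1B01G324500.1, higher at 0 DAT (1.51, edgeR adjusted p = 0.0037) and with 0.09 at 1 DAT. Near L5 1 of 6 was lower at 0 DAT, TraesCS1D01G128500.1 (-0.69, edgeR adjusted p = 0.015). That call ended without control replicate 3 (0.053), without heat replicate 2 (0.05) and with total counts (0.6). None of these 18 transcripts was called at 4 DAT.

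The estimated counts of all 3 members were not whole numbers, to within 0.001, in any of the 24 libraries, as for 45.1% of all tested transcripts. Such values arise where reads that also match other transcripts are divided between them. Copies of these genes on the other subgenomes can thus contribute to the values, with an uncertainty that the spread between replicates does not show. Each gene had 1 transcript in the table, and no other transcript had the same values. With 1 transcript per gene, the summed counts per gene are the members' own counts and do not test how reads were divided. The fit on them gave 1.92, 1.52 and 0.49 at 0 DAT for the ligase, the mTERF protein and L5.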

How the data were processed

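The estimated counts per transcript of 24 RNA-seq libraries in 6 groups were made by the authors with Trimmomatic (read trimming) and kallisto (pseudoalignment), per the submitters' processing notes, and deposited without normalization. Versions and the transcript index are not given in the sources used here. Counts were rounded. The software was R 4.3.3, DESeq2 1.42.0, edgeR 4.0.16 and limma 3.58.1. Low transcripts were removed by filterByExpr with a minimum count of 10 and a minimum total of 15, and libraries were scaled by TMM. One edgeR quasi-likelihood model had a mean per group, with two-sided tests and Benjamini-Hochberg adjustment at 0.05. The approximate SE of a log2 fold change is its size over the root of the F statistic. Scripts were tested on simulated counts. Members and lists were chosen with earlier results of these data known.

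Named transcripts were the members, the 5 nearest patterns and the nearest with text, up to 3 calls per list and time, and 3 neighbours by ID on each side. A shortened copy of the study's target table gave names for 595 transcripts and the sequences. Of these IDs 0 were found in the RefSeq genes of IWGSC CS RefSeq v2.1, hence chromosomes are read from the IDs and positions are left out. Replicates of heat and control with the same number were not treated as paired (correlation of their deviations -0.01 to 0.24), while pools of one number within a treatment are taken to be the same plants over time (-0.26 to 0.15). These correlations do not settle either choice. p-values measure the spread between pools of plants within groups. The main model had no block, so the SE and p of differences between times treat libraries of the same pool as independent. Alternatives were other scaling, DESeq2, no filter, counts per gene, fewer libraries and a replicate block.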

Additional observations from a re-analysis of the deposited data

Results flagged for a closer look

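Among the 15 transcripts with values by library, 8 of 90 groups of 4 had 1 library set apart from the other 3 beyond Dixon's 95% critical value for 4 samples, where chance alone gives about 1 in 20. None of these groups belonged to the MurE-like ligase, the mTERF protein or L5. The 60S protein L36 (TraesCS1B01G294200.1) had 15.2 CPM in heat 4 DAT replicate 1 and 13.7 to 13.9 CPM in the others. Tyrosine-tRNA ligase (TraesCS2B01G068200.1) had 1.98 CPM in heat 4 DAT replicate 4 against 4.78 to 5.17 CPM. TraesCS2D01G396500.1, the nearest pattern to the mTERF protein, had 17.5 CPM in heat 0 DAT replicate 1 against 13.2 to 13.5 CPM. The Rubisco small chain (TraesCS5B01G162800.1) had 7261 CPM in control 0 DAT replicate 3 against 4157 to 4314 CPM, and 6772 CPM in heat 4 DAT replicate 4 against 3218 to 3712 CPM. CRS2-associated factor 1 (TraesCS6D01G100100.2) had 1.18 CPM in control 1 DAT replicate 3 against 2.40 to 2.62 CPM. Cytochrome b6-f subunit 4 (TraesCSU01G269500.1) had 29.98 CPM in control 4 DAT replicate 2 against 8.97 to 10.5 CPM, and 81.9 CPM in heat 1 DAT replicate 3 against 18.4 to 24.9 CPM.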

How the results depend on the processing

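A log2 fold change of a member was counted as kept if it moved by less than the pooled SD of log2 CPM within groups. This held in 106 of 113 comparisons with other settings and in 168 of 168 with 1 library left out. Leaving out 1 of 4 libraries can hardly move a group mean that far, so nothing is read from the 168. The mTERF value at 4 DAT, counted as kept, ran from -0.50 to 0.10 there. Counts per gene, among the other settings, left the members' own counts unchanged. The 7 exceptions were all with total counts, which gave 2.40, 2.09 and 0.98 for the ligase, the mTERF protein and L5 at 0 DAT, -0.28 for the difference of L5 between 1 and 0 DAT, and -2.04, -2.32 and -1.66 for the differences of the 3 between 4 and 0 DAT. For tested changes in control, 46 of 47 kept their side of the threshold under other settings and 48 of 48 with 1 library left out, the exception being the ligase between 0 and 1 DAT with DESeq2 (-1.22). With the replicate number as a block, the 0 DAT values were 1.90, 1.62 and 0.49. With the pool of plants as a replicate block, no tested change of a member in control passed, as without it. With only the groups compared, the filter removed the mTERF protein at 4 DAT and in control between 0 and 4 DAT, so no value was obtained. The same held for TraesCS6B01G395300.1 at 1 DAT.

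Counts of called transcripts depended more on the setting. At 1 DAT they were 4342 with total counts and 3514 with only the groups compared, against 7358. At 4 DAT, against 98, they were 60 with total counts, 45 without a filter, 205 per gene, 44 with the replicate block, 1 with only the groups compared, 3 without the 4 libraries rich in TraesCS1A01G000100.1 and 655 with DESeq2. With 1 library left out they ran from 12 to 62. For control at 1 against 0 DAT they were 0 with total counts, without a filter, with the block and with only the groups compared, 13 per gene, 5 without the 4 libraries and 295 with DESeq2, and 0 to 11 with 1 library left out. For control at 4 against 0 DAT they were 0 with total counts and the block, 1 without a filter, 32 per gene, 2 with only the groups compared, 1 without the 4 libraries and 281 with DESeq2, and 0 to 2 with 1 library left out. The cause was not tested. TraesCS1D01G211800.1 turned from -0.39 to 0.12 at 0 DAT with total counts. Limits are the 4 pools per group, the low counts of the mTERF protein, and reads divided between similar copies.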
